A study of Mus musculus with 18 samples.

Results

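The bone marrow of 8-week-old mice was examined 24 h after 2 Gy of gamma rays, on the 3 arrays titled for that age, dose and time and the 3 arrays of unirradiated mice of the same age, 6 of the 18 arrays of the study. The irradiated group held female C3H mice aged 8 weeks whose marrow was taken 24 h after 2 Gy given at 0.6 Gy per min. The control group held unirradiated female C3H mice aged 8 weeks. Comparison groups were 3 mice aged 8 weeks taken 6 h after the same dose, and 3 irradiated mice at 24 h with 3 unirradiated mice, all aged 1 week. The labels name no mutation, transgene or drug in any group, and they give 1 mouse per array, so p-values measure the spread between mice. Each array measured total RNA of unsorted marrow by Cy3 fluorescence. In such bulk RNA, fewer cells of a type and less RNA per cell cannot be told apart. Nor can a larger share of cells of a type and more RNA per cell, so this limit holds for every rise below too.

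Bone marrow is the main site of blood cell formation in the adult mouse. Dividing progenitors and precursors of B cells are among the cells most sensitive to ionising radiation, while macrophages, stromal cells, endothelium and bone cells divide little and are more resistant. Radiation breaks DNA, the kinases of the damage response stabilise the transcription factor p53, and p53 switches on genes that stop the cell cycle, repair DNA or start mitochondrial apoptosis. Damaged or dying cells can also set off type I interferon and chemokine programmes in their neighbours. Stromal and endothelial cells make the niche signals, such as CXCL12 and stem cell factor, that hold and feed stem cells.

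Values are log2 of the background-subtracted fluorescence minus the 75th percentile of the same array, so 0 is a bright probe and every rise or fall is relative to that percentile. Raw signal at the 75th percentile was 489.1 to 557.5 on the irradiated arrays and 637.7 to 695.1 on the control arrays, and whether this difference plays a part in the results was not tested. Between 52.47 and 56.11% of probes stood well above background on the irradiated arrays, and 55.44 to 56.92% on the control arrays. Replicate arrays correlated at r = 0.9956 to 0.9967 in irradiated and 0.993 to 0.9952 in control marrow. Of 17178 genes with a probe, 11888 were bright enough to test, and 5280 were too dim. Transcripts that define marrow were among the brightest on all 6 arrays: the beta globin Hbb-bt, whose probe may share signal with other globin copies, stood at 10.25, 10.26 and 10.23 in irradiated and 9.75, 9.68 and 9.78 in control marrow, and the neutrophil granule enzyme Mpo at 9.15, 9.30 and 9.12 in irradiated and 8.6, 8.53 and 8.62 in control marrow.

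At 24 h 6874 of the tested genes (57.8%) differed from control by limma with a Benjamini-Hochberg adjusted p under 0.05, the threshold for every "rose" and "fell" below. Of these, 4553 rose (38.3% of tested genes) and 2321 fell (19.5%). The change was at least 2-fold for 921 genes that rose and 272 that fell, and at least 4-fold for 172 and 61. The median log2 difference over all tested genes was 0.123. Because most genes were called, a list of genes is described by its own count and median beside these shares. The array values of the 2 groups did not overlap for 6755 of the called genes and for 69.6% of all tested genes. Irradiated arrays lay on slides 1, 2 and 5 and control arrays on slides 3, 4 and 5. On slide 5, which held an array of each group, 6860 of the 6874 called genes (99.8%) moved in the direction of the whole comparison. Both arrays are part of that comparison, and the direction is fixed in advance for the 6755 genes without overlap. The count therefore cannot test for a difference between slides. A fit with slide as a block called 6769 genes, 67.5% of them higher, against 6874 and 66.2% without it. Slide 5 alone held arrays of both groups.

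**Figure D1:**
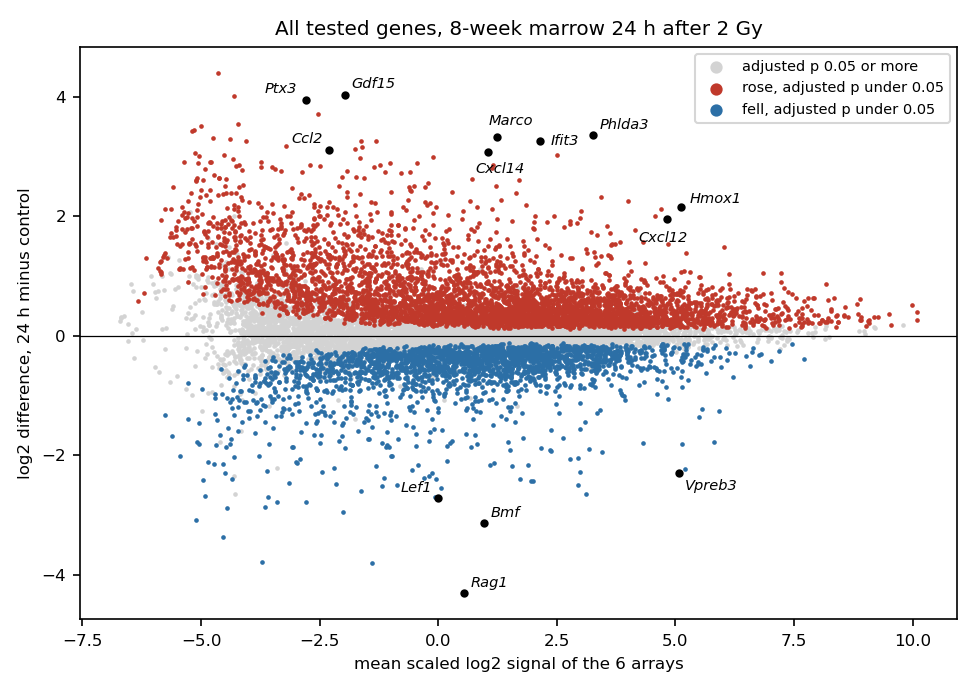
Log2 difference, 24 h minus control, against the mean scaled log2 signal of the 6 arrays for 11888 tested genes of 8-week marrow. Red points are the 4553 genes that rose, blue points the 2321 that fell and grey points the rest, and the labelled black points are genes described in the text.

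Promoter sequence is shown for members of the groups of genes known to answer damage or interferon. The interferon-stimulated response element, to which the interferon-activated factors bind, was searched as GAAANNGAAA on either strand in the 250 bases before and 50 bases after the start of each gene in RefSeq's table for the mouse assembly GRCm38.p6. It was found in 1131 of 32851 windows (3.443%). Of 36 tested interferon-stimulated genes 28 had a window, and 17 of these (60.7%) held it. The 250 bases before the start are given for the 4 members with the element and the smallest adjusted p, with matches in capitals.
Ifit3: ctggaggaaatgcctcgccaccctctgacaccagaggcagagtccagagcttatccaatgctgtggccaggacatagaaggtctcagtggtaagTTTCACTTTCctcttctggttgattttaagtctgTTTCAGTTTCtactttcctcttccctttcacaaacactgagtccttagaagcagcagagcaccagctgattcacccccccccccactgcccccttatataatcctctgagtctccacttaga
Oas1a: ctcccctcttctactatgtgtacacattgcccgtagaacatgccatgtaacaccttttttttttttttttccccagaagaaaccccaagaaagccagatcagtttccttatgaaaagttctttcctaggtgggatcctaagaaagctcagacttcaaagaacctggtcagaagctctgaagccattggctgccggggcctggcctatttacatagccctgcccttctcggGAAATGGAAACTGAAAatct
Gbp2: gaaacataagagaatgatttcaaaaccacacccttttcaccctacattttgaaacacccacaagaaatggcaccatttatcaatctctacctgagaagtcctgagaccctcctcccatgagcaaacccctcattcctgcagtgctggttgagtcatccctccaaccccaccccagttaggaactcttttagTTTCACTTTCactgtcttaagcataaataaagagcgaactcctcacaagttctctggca
Ifit1: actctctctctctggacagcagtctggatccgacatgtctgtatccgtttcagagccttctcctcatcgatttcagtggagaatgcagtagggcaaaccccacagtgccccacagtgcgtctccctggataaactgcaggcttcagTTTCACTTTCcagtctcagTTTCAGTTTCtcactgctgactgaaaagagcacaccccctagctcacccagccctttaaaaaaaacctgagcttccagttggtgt
The stretch of Ifit3 is chr19:34583279-34583528 on the plus strand, with 2 matches within positions -156 to -113 from the start. That of Oas1a is chr5:120907526-120907775 on the minus strand, where 2 overlapping matches fill 1 stretch from -20 to -5. That of Gbp2 is chr3:142620413-142620662 on the plus strand, with 1 match from -59 to -50. That of Ifit1 is chr19:34640639-34640888 on the plus strand, with 2 matches within -104 to -76. All 4 genes rose, by 3.26 ± 0.19, 1.89 ± 0.14, 1.63 ± 0.13 and 2.40 ± 0.20 on the log2 scale (± SE). The motif was no divide within the list, since 15 of the 17 members with it rose and 11 of 11 members with a window but no match rose too. Of 9561 tested genes with a window 363 held the motif, of which 182 rose (50.1%). These 363 include the 17 members of the list. Among all tested genes, with or without a window, 38.3% rose.

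The p53 element, a tandem repeat of the p53 binding motif with up to 13 bases between the repeats, was found in 24 of the windows (0.073%). Only exact repeats of RRRCWWGYYY were counted, where R is A or G, W is A or T and Y is C or T. Elements that differ from this pattern by 1 base were missed. Of 29 tested p53 targets with a window the exact element stood in 1, that of Cdkn1a, which encodes the cyclin-dependent kinase inhibitor p21. The sequence is chr17:29090729-29090978 on the plus strand, with the repeat and its spacer in capitals from position -73 to -42. The bases that follow the capitals directly match the motif but for 1 base, and are not marked.
Cdkn1a: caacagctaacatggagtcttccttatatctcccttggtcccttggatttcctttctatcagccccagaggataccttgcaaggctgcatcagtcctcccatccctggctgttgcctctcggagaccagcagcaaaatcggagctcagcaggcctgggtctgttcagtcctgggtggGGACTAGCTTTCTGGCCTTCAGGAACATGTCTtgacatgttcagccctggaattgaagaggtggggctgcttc
Such a match is a description of the letters, and binding was not measured.

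Genes that p53 is known to switch on were still high at 24 h. Of 38 tested members of the p53 target list 27 rose and 5 fell, with a median log2 difference of 0.821 against 0.123 for all genes. Phlda3, a p53-induced repressor of AKT signalling, had scaled log2 signals of 4.91, 4.93 and 5.01 in irradiated marrow, against 1.68, 1.52 and 1.57 in control marrow. The groups lay 10.3-fold apart (log2 difference 3.36 ± 0.07, ± SE here and below, adjusted p = 1.29e-14 by limma), far beyond the spread of either. Cdkn1a stood at 2.47, 2.63 and 2.51 in irradiated and -0.27, -0.40 and -0.14 in control marrow, a 6.99-fold rise (adjusted p = 8.17e-10 by limma). The secreted stress factor Gdf15, of the TGF-beta family, had -0.08, 0.13 and 0.11 in irradiated and -3.52, -4.0 and -4.42 in control marrow. Its rise of 4.03 ± 0.39 on the log2 scale was a 16.4-fold change with no overlap between the groups. Other p53 targets that rose were Zmat3, an RNA-binding splicing regulator (3.0 ± 0.08), the cyclin Ccng1 (2.38 ± 0.08), Dglucy (1.80 ± 0.07) and the apoptosis-enhancing nuclease Aen (1.5 ± 0.08). Mdm2, the ubiquitin ligase that degrades p53, rose by 0.28 ± 0.09 (adjusted p = 0.0109 by limma), and without irradiated replicate 3 the difference was 0.213 with an adjusted p of 0.0625 by limma. With another background correction, normexp with high local backgrounds replaced, the difference of Mdm2 was 0.171 (adjusted p = 0.167 by limma). Trp53inp1, an adaptor of the p53 response, had 4.09, 4.01 and 4.20 in irradiated and 3.92, 3.93 and 3.96 in control marrow and did not pass the test (adjusted p = 0.112 by limma). The 5 members that fell were Rrm2b, a ribonucleotide reductase subunit (-1.45 ± 0.17), Trp53i11 (-1.18 ± 0.13), the DNA damage sensor Ddb2 (-0.45 ± 0.08), the receptor kinase Epha2 (-0.31 ± 0.10) and the antiproliferative gene Btg2 (-0.28 ± 0.07, with -0.12 and -0.09 by its other probes).

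Of 13 tested members of the BCL2 family, the regulators of mitochondrial apoptosis, 8 rose and 2 fell (median 0.441). The pore former Bax had 2.93, 3.18 and 2.89 in irradiated and 1.81, 1.87 and 1.75 in control marrow. It rose 2.28-fold, and the BH3-only activator Bbc3, known as PUMA, rose 2.08-fold with no overlap of the groups. Bid, another BH3-only member, rose by 0.55 ± 0.09 on the log2 scale, and the protective member Bcl2a1b by 1.17 ± 0.09. Bmf, a BH3-only killer, went the other way, at -0.59, -0.64 and -0.58 in irradiated and 2.53, 2.52 and 2.55 in control marrow. That is 8.77-fold lower (log2 difference -3.13 ± 0.08, adjusted p = 2.84e-14 by limma), and its other probes gave differences of -1.02 and -0.78. Bcl2l11, known as BIM, fell by 0.38 ± 0.07 on the log2 scale by its brightest probe, while its other probe gave a difference of 0.43.

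**Figure D2:**
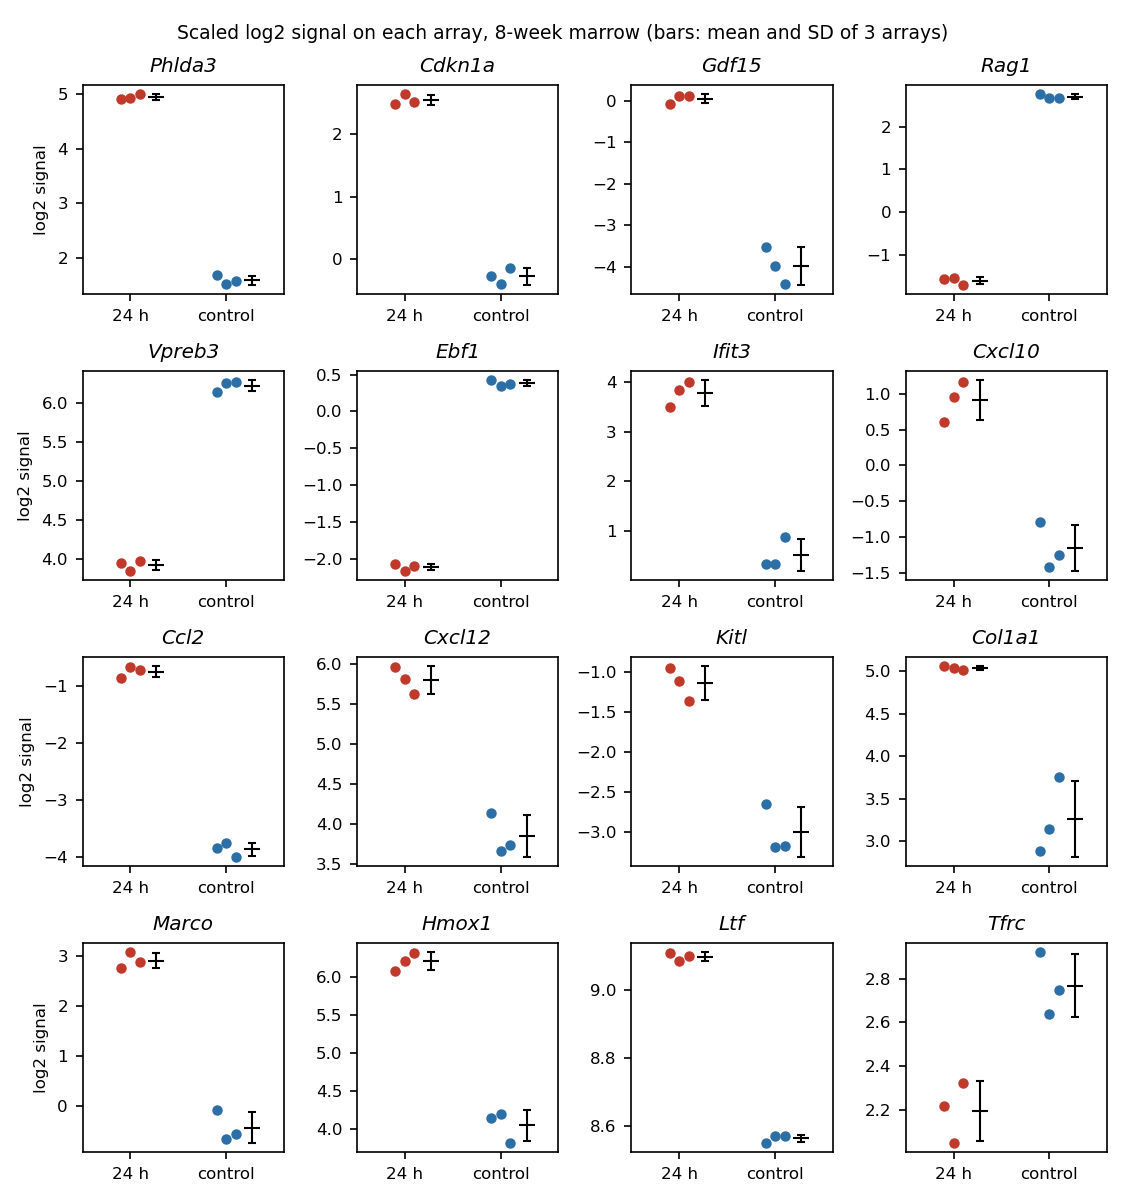
Scaled log2 signal of 16 genes on each of the 3 irradiated (24 h, red, left) and 3 control (blue, right) arrays of 8-week marrow, with black bars for mean and SD. The groups do not overlap in any panel, and Rag1, Vpreb3, Ebf1 and Tfrc are the panels where the irradiated arrays are lower.

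Most genes on the lists of B-cell development fell. Of 15 tested genes of V(D)J recombination, which assembles immunoglobulin genes, and of the pre-B receptor, 13 fell and 0 rose (median -1.36, against 19.5% of all genes falling). Rag1, the recombinase, had -1.57, -1.55 and -1.69 in irradiated and 2.76, 2.66 and 2.67 in control marrow. It was 19.8-fold lower (adjusted p = 2.59e-14 by limma), and its other probe gave a difference of -3.98. Vpreb3, a chaperone of the pre-B receptor, had 3.95, 3.85 and 3.97 in irradiated and 6.14, 6.25 and 6.27 in control marrow, 4.93-fold lower. The surrogate light chain gene Vpreb2 fell by 2.41 ± 0.13, the pre-B receptor adaptor Blnk by 1.77 ± 0.07 and the end-joining ligase Lig4 by 1.80 ± 0.08 on the log2 scale. Vpreb2 has a near-identical copy, Vpreb1, which their probes may not tell apart. Cd79a, the signalling chain of the B receptor, had -3.09, -3.15 and -2.88 in irradiated and -1.70, -1.71 and -1.75 in control marrow (2.50-fold lower, adjusted p = 0.00108 by limma). The 2 members that did not pass were the end-joining genes Xrcc5 (0.19 ± 0.09) and Xrcc4 (0.08 ± 0.08), named after their values were seen.

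Transcription factors of the B lineage fell in 13 of 14 cases and rose in 0 (median -1.734). Ebf1, the factor that commits progenitors to the lineage, had -2.07, -2.16 and -2.10 in irradiated and 0.43, 0.35 and 0.38 in control marrow. Its 5.63-fold fall was many times the spread between mice. Lef1, a Wnt-pathway factor of pro-B cells, fell 6.56-fold, Foxo1, which drives Rag expression, 3.69-fold, Spib 3.85-fold, the coactivator Pou2af1 3.49-fold and Sox4 3.17-fold. Bcl11a was the member that did not pass (-0.07 ± 0.06), named after its value was seen. Among 18 genes of mature B cells 15 fell and 0 rose, with a smaller median of -0.711. The coreceptor Cd72 had 0.64, 0.39 and 0.52 in irradiated and 2.93, 2.80 and 3.01 in control marrow. The groups stood clear of each other, at 5.27-fold lower in irradiated marrow. Tnfrsf13c, the receptor for the survival factor BAFF, fell 2.73-fold, the kinase Blk 3.02-fold and Ms4a1, which encodes CD20, 1.95-fold. Plasma cell genes divided, with 4 of 11 rising and 4 falling (median 0.035), beside 38.3% and 19.5% of all tested genes. The count that rose is near the share of all genes and is no result about the list. The immunoglobulin joining chain Jchain rose by 1.00 ± 0.11 and the folding enzyme Fkbp11 by 1.40 ± 0.10 on the log2 scale, while Irf4 fell by 2.02 ± 0.13, the syndecan Sdc1 by 0.60 ± 0.09 and Mzb1 by 0.55 ± 0.07.

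T-cell genes moved both ways, with 4 of 16 rising and 6 falling (median 0.006), beside 38.3% and 19.5% of all tested genes. Among the members that fell were Il7r, the interleukin receptor that B precursors share (0.19, 0.04 and 0.12 in irradiated and 2.24, 2.19 and 2.31 in control marrow, 4.37-fold lower), and the homing receptor Ccr7 (3.12-fold lower). The kinase Lck and the adhesion molecule Cd2 fell by 0.48 ± 0.08 and 1.16 ± 0.25 on the log2 scale. Chains of the T-cell receptor complex rose, Cd3d by 0.56 ± 0.13 and Cd3g by 0.45 ± 0.10, as did Cd6 (0.45 ± 0.11) and the T-helper factor Gata3 (0.63 ± 0.18). Cd3e had -3.16, -2.95 and -3.11 in irradiated and -3.46, -3.38 and -1.68 in control marrow, where control replicate 3 stood above all other arrays. The groups overlapped and the difference of -0.23 ± 0.36 did not pass (adjusted p = 0.603 by limma). Without control replicate 3 it was 0.350. Of 17 NK-cell genes 7 rose and 0 fell (median 0.421), among them the granule protein Nkg7 (0.69 ± 0.08), the killer protease Gzmb (0.96 ± 0.19), the cytokine receptor chain Il2rb (0.48 ± 0.10), the factor Tbx21 (0.42 ± 0.12) and the kinase Txk (0.32 ± 0.11). The 7 of 17 NK genes that rose are near the 38.3% of all tested genes that rose, so this count is no result about the list. Without control replicate 1, 4 NK genes rose.

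Stem and progenitor genes rose in 8 of 20 cases and fell in 4 (median 0.196), shares near the 38.3% and 19.5% of all tested genes, so that the count is no result about the list. Ly6a, which encodes the stem cell antigen SCA-1 and is inducible by interferon, had -0.43, -0.12 and -0.11 in irradiated and -1.55, -1.48 and -1.52 in control marrow (2.47-fold higher). The sialomucin Cd34 rose by 0.74 ± 0.08 and the protein C receptor Procr by 0.88 ± 0.10 on the log2 scale, while the progenitor factors Myb, Lmo2, Meis1 and Sox4 fell by 0.44 ± 0.06, 0.34 ± 0.07, 0.61 ± 0.19 and 1.67 ± 0.08. The other probe of Meis1 gave a difference of -0.10. 

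Granulocyte genes rose nearly throughout. Among 12 tested genes of early granulocytes 11 rose and 0 fell (median 0.652). Of 31 genes of late neutrophils 30 rose and 0 fell (median 0.698). Ctsg, a serine protease of primary granules, had 7.65, 7.94 and 7.68 in irradiated and 6.69, 6.71 and 6.74 in control marrow, 2.06-fold higher. Mpo, the primary granule peroxidase, rose by 0.61 ± 0.07 on the log2 scale, Ms4a3 by 0.90 ± 0.09 and the proteases Prtn3 and Prss57 by 0.92 ± 0.10 and 0.81 ± 0.08. Ltf, the lactoferrin of secondary granules, had 9.11, 9.08 and 9.10 in irradiated and 8.55, 8.57 and 8.57 in control marrow, a small but tight rise of 1.45-fold. The stefins Stfa1, Stfa2 and Stfa3, near-identical neighbours whose probes may share signal, rose 3.23-fold, 2.85-fold and 3.44-fold. The pattern receptors Clec4d and Clec4e rose 2.02-fold and 1.85-fold. Genes of mast cells, basophils and eosinophils rose in 10 of 20 cases, beside 38.3% of all tested genes, and fell in 0 (median 0.375). Among them were Hdc, which makes histamine (1.09 ± 0.10), the eotaxin receptor Ccr3 (1.25 ± 0.12), the eosinophil peroxidase Epx (0.90 ± 0.11) and the granule genes Prg3 (0.83 ± 0.08) and Ear1 (0.78 ± 0.08).

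Monocyte genes did not move together. Of 16 tested 5 rose and 7 fell (median -0.13), beside 38.3% and 19.5% of all tested genes. Only 4 fell when either control replicate 2 or irradiated replicate 1 was left out. Ms4a7, also a macrophage gene, had 0.95, 1.00 and 1.20 in irradiated and -0.71, -0.67 and -0.73 in control marrow, 3.36-fold higher. The monocyte antigen Ly6c2 rose by 0.63 ± 0.09 and the endotoxin coreceptor Cd14 by 0.45 ± 0.09 on the log2 scale. Fibronectin, Fn1, fell by 1.21 ± 0.17 and the fractalkine receptor Cx3cr1 by 0.74 ± 0.14, and averaging all probes of Cx3cr1 gave 0.127.

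Genes of tissue-resident macrophages rose in 24 of 28 cases and fell in 1 (median 1.388, with a range of -0.43 to 3.32). Marco, a scavenger receptor for particles and dying cells, had 2.76, 3.06 and 2.87 in irradiated and -0.08, -0.65 and -0.55 in control marrow. Irradiated marrow held 10-fold more of its signal (adjusted p = 1.85e-11 by limma), with no overlap. Spic, the haem-induced factor of red pulp and marrow macrophages, had 3.72, 3.76 and 3.73 in irradiated and 1.81, 1.92 and 1.74 in control marrow, 3.77-fold higher. The oxysterol receptor Nr1h3 rose 3.70-fold. Cd163, the receptor for haemoglobin bound to haptoglobin, had 2.21, 2.14 and 2.36 in irradiated and 1.20, 0.89 and 0.88 in control marrow, a 2.38-fold rise. The lone fall was Cd36 (-0.43 ± 0.15, adjusted p = 0.0217 by limma), a fatty acid and phosphatidylserine receptor that erythroid and fat cells also make. Msr1, Folr2 and Lyve1 did not pass, at 0.15 ± 0.15, 0.11 ± 0.22 and 0.05 ± 0.14, and are named after their values were seen.

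Genes of haem and iron handling, in part the same macrophage genes, rose in 12 of 17 cases and fell in 2 (median 0.626). Hmox1, the haem oxygenase, had 6.08, 6.21 and 6.32 in irradiated and 4.14, 4.19 and 3.81 in control marrow, 4.46-fold higher (adjusted p = 1.59e-11 by limma). The next enzyme of haem breakdown, Blvra, rose by 0.70 ± 0.07, the iron exporter Slc40a1 by 0.95 ± 0.06 and the ferritin light chain Ftl1 by 1.06 ± 0.08 on the log2 scale. The members that fell were the iron uptake genes of red cell precursors, the transferrin receptor Tfrc and the iron importer Slc11a2. Tfrc had 2.22, 2.05 and 2.32 in irradiated and 2.92, 2.64 and 2.75 in control marrow, and Slc11a2 fell by 0.59 ± 0.10 by its brightest probe while its other probe gave 0.12.

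Red cell genes were lower, by small amounts. Among 27 erythroid regulators and surface genes 18 fell and 2 rose (median -0.34, range -0.70 to 0.39). Epb42, a protein of the red cell membrane skeleton, had 1.51, 1.61 and 1.61 in irradiated and 2.27, 2.28 and 2.30 in control marrow, 1.63-fold lower. The adhesion molecule Icam4 fell by 0.70 ± 0.10, Ermap by 0.53 ± 0.10 and Trim10 by 0.50 ± 0.06 on the log2 scale. The lineage factor Gata1 had 2.11, 2.17 and 2.18 in irradiated and 2.41, 2.29 and 2.25 in control marrow and did not pass (adjusted p = 0.0795 by limma). The 2 that rose were Bpgm, which makes the haemoglobin effector bisphosphoglycerate (0.39 ± 0.10), and the factor Nfe2, also a megakaryocyte gene (0.30 ± 0.08). Haem synthesis and globin genes divided, 5 rising and 5 falling among 16 (median -0.138), beside 38.3% and 19.5% of all tested genes. Alas2, the erythroid enzyme that begins haem synthesis, had 8.50, 8.54 and 8.81 in irradiated and 7.70, 7.79 and 7.77 in control marrow, 1.82-fold higher, and Hbb-bt rose by 0.51 ± 0.10. The embryonic globin Hbb-bh1, whose sequence is close to other globins and whose probe may share their signal, rose by 1.21 ± 0.18. The mitochondrial transporters Slc25a38 and Abcb10 fell by 0.60 ± 0.08 and 0.51 ± 0.11.

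Megakaryocyte and platelet genes rose in 18 of 21 cases and fell in 0 (median 0.706), and in 11 when control replicate 2, control replicate 3 or irradiated replicate 2 was left out. Clec1b, the podoplanin receptor, had 2.64, 2.89 and 2.86 in irradiated and 1.99, 1.77 and 1.59 in control marrow (2.02-fold). The tetraspanin Cd9 rose by 0.55 ± 0.06, the thrombin receptor F2r by 0.68 ± 0.13, the matrix protein Thbs1 by 0.86 ± 0.17 and coagulation factor F5 by 0.38 ± 0.08. Pf4, a platelet chemokine, had 5.22, 5.55 and 5.22 in irradiated and 4.98, 4.56 and 4.35 in control marrow, and its rise of 0.70 ± 0.26 (adjusted p = 0.0288 by limma) did not pass without control replicate 2, control replicate 3 or irradiated replicate 2.

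**Figure D3:**
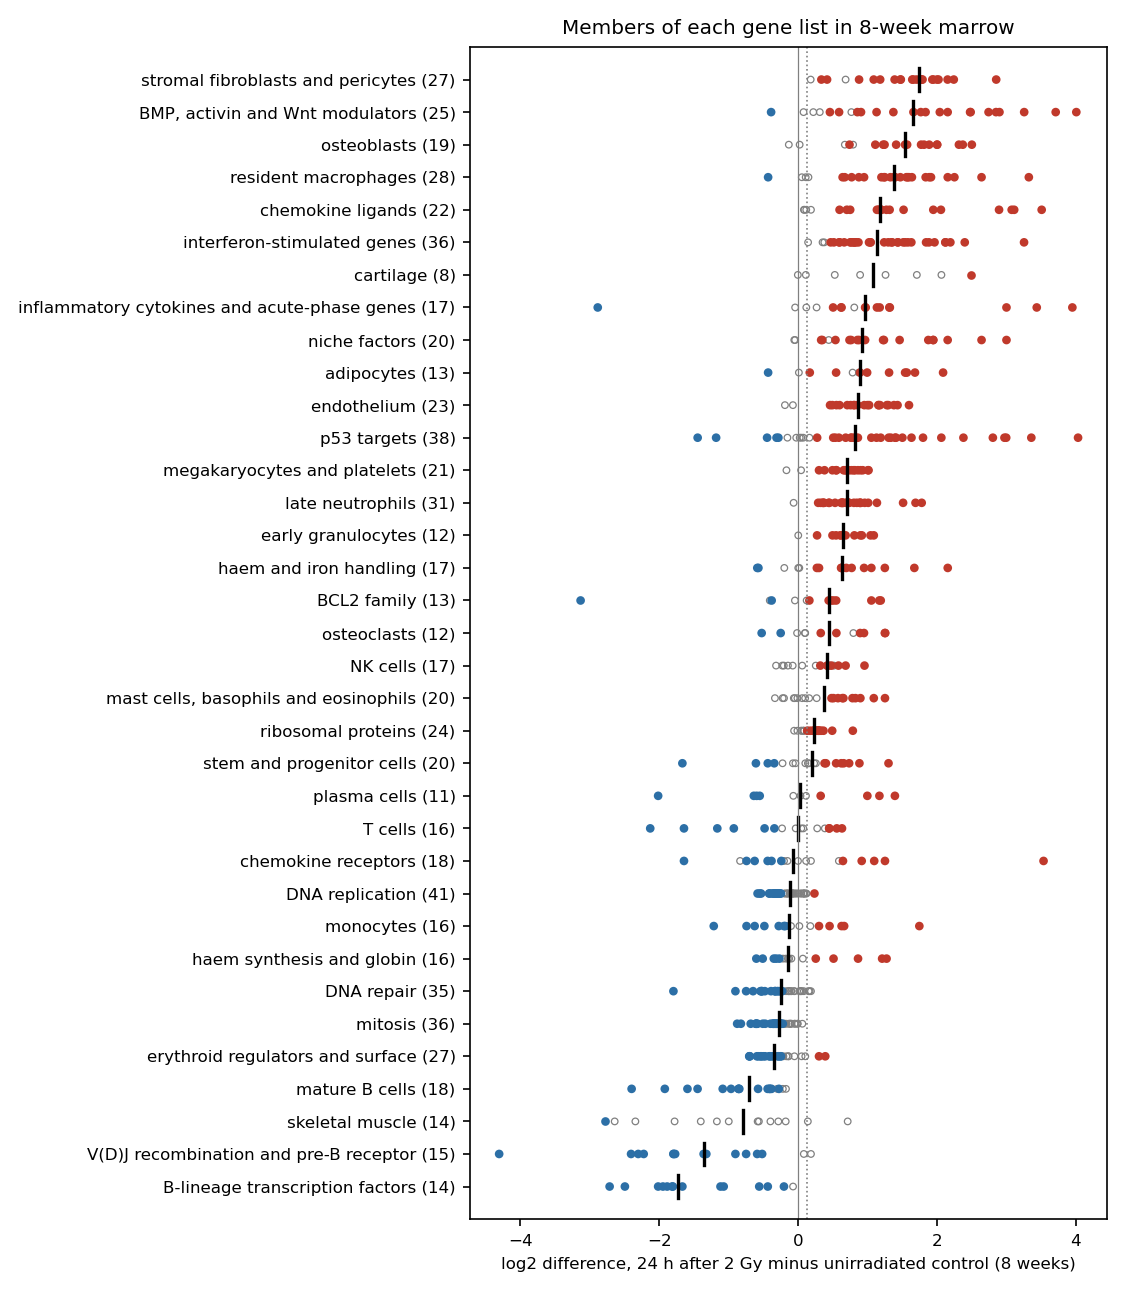
Log2 difference, 24 h minus control, of every tested member of 35 gene lists, ordered by list median (black bar), with the number of tested members in brackets. Filled red points rose, filled blue points fell and open points did not pass. The dotted line is the median of all genes, 0.123, and the B-lineage lists lie left of it while stromal, macrophage, interferon and chemokine ligand lists lie right of it.

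Mitosis genes fell in most cases, and most replication genes did not pass the test. In the mitosis list 23 of 36 fell and 0 rose (median -0.274), and 13 fell without control replicate 3. Cenpe, a kinetochore motor, had 3.96, 3.63 and 3.87 in irradiated and 4.78, 4.38 and 4.77 in control marrow, 1.77-fold lower. Cenpf fell by 0.88 ± 0.14, Nek2 by 0.60 ± 0.09, and Ckap2 by 0.51 ± 0.08 on the log2 scale. The spindle motor Kif11 fell by 0.60 ± 0.10 by its brightest probe, while its other probe gave a difference of -0.02. Cyclin B, Ccnb1, had 2.34, 2.42 and 2.37 in irradiated and 2.55, 2.44 and 2.55 in control marrow and did not pass (adjusted p = 0.185 by limma). In the DNA replication list 15 of 41 fell, 1 rose and 25 did not pass (median -0.119), and 25 fell after quantile normalisation. The chromatin factor Uhrf1, the polymerase Pole, Pola1 and the factor E2f1 fell by 0.53 ± 0.08, 0.34 ± 0.08, 0.42 ± 0.10 and 0.28 ± 0.06, and the clamp loader Rfc2 rose by 0.24 ± 0.08. Mcm2, of the replicative helicase, had 3.36, 3.38 and 3.42 in irradiated and 3.52, 3.47 and 3.40 in control marrow and did not pass (adjusted p = 0.48 by limma). Of 35 DNA repair genes 18 fell and 0 rose (median -0.24). The leading ones were end-joining genes that V(D)J recombination also uses, Lig4, Dclre1c (-0.75 ± 0.09) and Xrcc6 (-0.90 ± 0.11), followed by the homologous recombination genes Rad54b (-0.53 ± 0.10) and Brca1 (-0.54 ± 0.11).

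Interferon-stimulated genes, which encode antiviral and immune effectors, were raised nearly as a whole. Of 36 tested 33 rose and 0 fell, with a median of 1.143. Ifit3, an antiviral RNA-response protein, had 3.49, 3.83 and 4.0 in irradiated and 0.34, 0.33 and 0.89 in control marrow. That is 9.54-fold higher (adjusted p = 7.9e-10 by limma). Oas1a, an RNA-sensing synthetase, had 3.68, 3.96 and 3.97 in irradiated and 1.95, 1.97 and 2.03 in control marrow, 3.69-fold higher. Its relatives Oasl1 and Oasl2 rose 4.36-fold and 3.91-fold, and Xaf1, a partner of an apoptosis inhibitor, rose 2.92-fold. In each of these 5 genes the lowest irradiated array stood above the highest control array. Gbp4, Stat2 and Isg15, named after their values were seen, did not pass at 0.38 ± 0.25, 0.15 ± 0.10 and 0.35 ± 0.29. The list mean was 2.33, 2.54 and 2.63 on the irradiated arrays and 1.17, 1.21 and 1.40 on the control arrays.

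**Figure D4:**
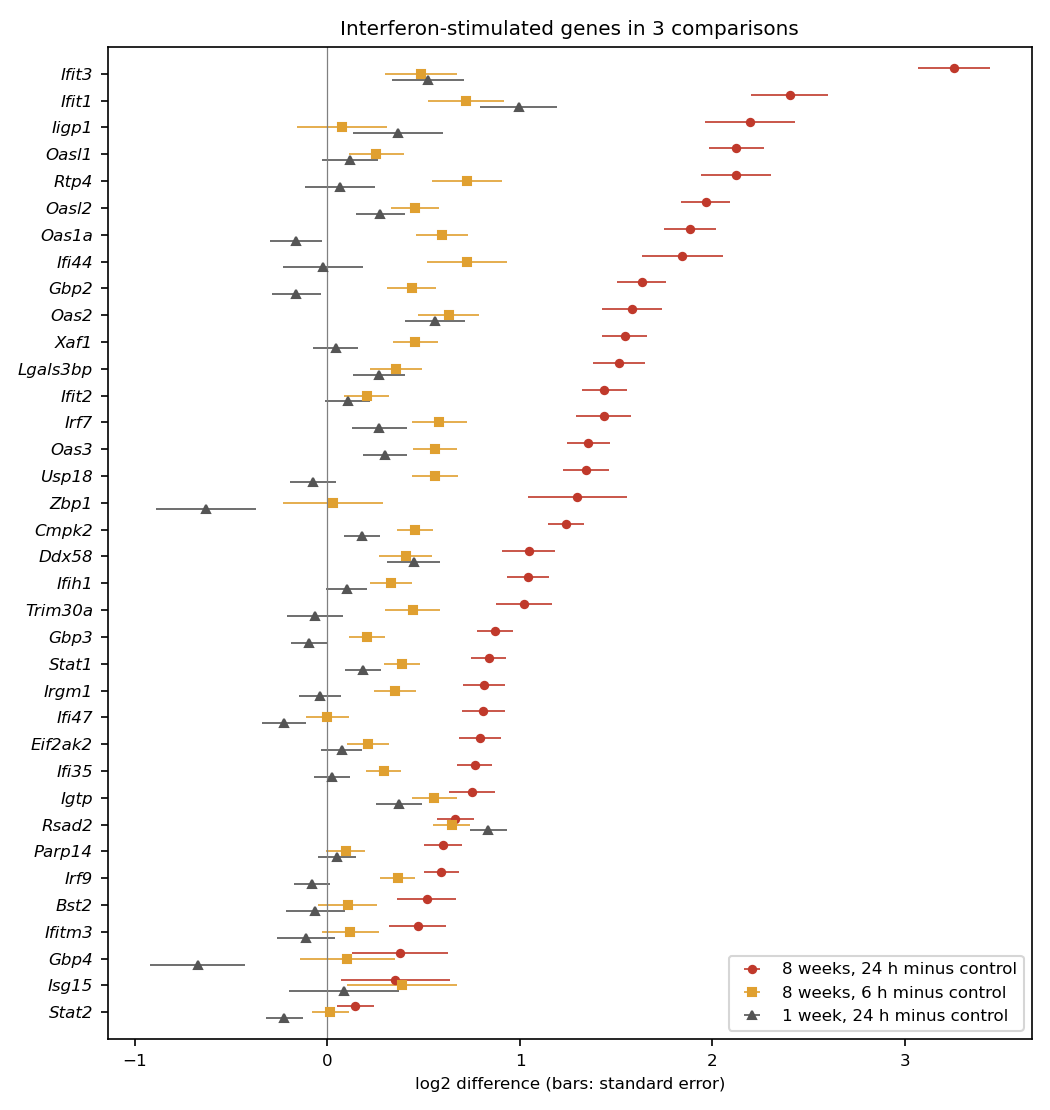
Log2 difference ± SE of the 36 tested interferon-stimulated genes at 8 weeks, 24 h minus control (red circles), 8 weeks, 6 h minus control (orange squares), and 1 week, 24 h minus control (grey triangles). Ifit3 stands at 3.26 among the red circles, and 33 red circles mark genes that rose. The first and second comparisons share their control arrays.

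Chemokine ligands, which the study's title names, rose in 17 of 22 tested cases and fell in 0 (median 1.186). A further 14 were too dim to test, among them Cxcl1, Cxcl2, Cxcl5 and Cxcl13. Ccl2, which recruits monocytes, had -0.85, -0.67 and -0.73 in irradiated and -3.84, -3.76 and -3.99 in control marrow, 8.65-fold higher (adjusted p = 2.43e-12 by limma). Its neighbours on chromosome 11, Ccl7 and Ccl12, were well above background on every irradiated array and on no control array. For such genes the fold is a lower bound, the bright group's mean over a floor per dim array that is the higher of the lowest signal well above background and the probe's own. Ccl12 was thereby at least 2.54-fold higher and Ccl7 at least 1.97-fold higher. Cxcl14 had 2.69, 2.67 and 2.40 in irradiated and -0.30, -0.45 and -0.72 in control marrow, 8.44-fold higher. Cxcl12, which holds stem cells and B precursors in the niche, had 5.97, 5.81 and 5.62 in irradiated and 4.15, 3.67 and 3.75 in control marrow, 3.86-fold higher from a bright start. The interferon-inducible T-cell attractants Cxcl10 and Cxcl9 rose 4.16-fold and 2.49-fold. The inflammatory chemokines Ccl3 and Ccl4 rose 2.26-fold and 2.29-fold. The membrane-bound Cx3cl1 and Cxcl16 rose 2.87-fold and 2.42-fold, and Xcl1, made by NK and T cells, 2.23-fold. The others that rose were Ccl6 (0.60 ± 0.09), Ccl8 (1.20 ± 0.34), the lymph node chemokine Ccl19 (0.75 ± 0.20), Ccl24 (1.14 ± 0.35, with 2 of 3 control arrays well above background) and Pf4.

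Chemokine receptors moved both ways, with 5 of 18 rising and 6 falling (median -0.077), beside 38.3% and 19.5% of all tested genes. Ackr4, a scavenger of Ccl19 and its relatives, was at least 4.42-fold higher and well above background on no control array. The scavenger of Cxcl12, Ackr3, well above background on 1 of 3 control arrays, rose by 1.1 ± 0.24, Cxcr6, the receptor of Cxcl16, by 0.92 ± 0.18, and the neutrophil receptor Cxcr2 by 0.65 ± 0.13 on the log2 scale. Ccr7 and Cx3cr1 were among those that fell.

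Inflammatory cytokine and acute-phase genes rose in 12 of 17 tested cases and fell in 1 (median 0.966), while Il6, Csf3 and 6 others were too dim. Ptx3, a soluble pattern receptor, had -0.68, -0.60 and -1.15 in irradiated and -3.92, -4.88 and -5.49 in control marrow, where 1 of the 3 control arrays was well above background. The fitted difference was 3.95 ± 0.31 on the log2 scale (adjusted p = 2.46e-08 by limma). Tnfsf4, the costimulatory ligand OX40L, was at least 2.25-fold higher. Il18 rose 2.50-fold, the interleukin receptor antagonist Il1rn 2.26-fold and the macrophage growth factor Csf1 1.95-fold. Il33, an alarmin of stromal cells, was well above background on every control array and no irradiated array, and was at least 2.48-fold lower.

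Transcripts of the niche rose. Of 20 tested niche factors 17 rose and 0 fell (median 0.923). Kitl, which encodes stem cell factor, had -0.94, -1.10 and -1.35 in irradiated and -2.65, -3.19 and -3.18 in control marrow, 3.67-fold higher (adjusted p = 6.62e-08 by limma). Igf1 had 2.12, 2.26 and 2.23 in irradiated and 0.35, 0.37 and 0.06 in control marrow, 3.85-fold higher. Il7, the growth factor of B precursors, was above background on every irradiated array and on no control array and was at least 2.09-fold higher. Bmp4 rose 4.45-fold.

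Secreted regulators of BMP, activin and Wnt signals rose in 19 of 25 cases and fell in 1 (median 1.662). Sfrp2, an antagonist of Wnt ligands, had -0.53, -0.65 and -0.84 in irradiated and -4.21, -4.53 and -4.42 in control marrow, 13.1-fold higher. Its relative Sfrp1 rose 9.56-fold, the follistatin-like Fstl1 7.22-fold, the BMP antagonist Chrdl1 6.70-fold and the matricellular Ccn4 5.57-fold, with 1 of its 3 control arrays well above background. The Wnt agonist Rspo2 was at least 4.92-fold higher, while Rspo1 was the member that fell (-0.39 ± 0.15, adjusted p = 0.0399 by limma).

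Structural genes of marrow stroma and bone rose with them. Among 27 genes of stromal fibroblasts and pericytes 24 rose and 0 fell (median 1.749). Among 19 osteoblast genes 15 rose and 0 fell (median 1.541). Taking the 4 and 5 members that were dim in a whole group at their bounds, the medians were 1.657 and 1.368. Mmp2, a collagen-degrading protease, had -1.08, -1.39 and -1.36 in irradiated and -3.97, -4.38 and -4.04 in control marrow, 7.23-fold higher. Foxc1 and Ebf3, factors of the CXCL12-rich reticular cells, rose 4.74-fold and 3.82-fold, and the pericyte molecule Mcam 3.26-fold. Col1a1, the main collagen of bone, had 5.05, 5.04 and 5.01 in irradiated and 2.89, 3.15 and 3.76 in control marrow. It was 3.41-fold higher, with a control spread wider than the irradiated one, and Col1a2 was 4.01-fold higher. Ibsp, a bone matrix protein, rose 3.70-fold, the parathyroid hormone receptor Pth1r 5.18-fold, and the osteoblast factor Sp7 was at least 2.58-fold higher. Also among the leading rises were the growth factor receptor Fgfr2 (at least 4.52-fold) and the retinol carrier Rbp4 (9.55-fold).

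Endothelial genes rose in 20 of 23 cases and fell in 0 (median 0.857). Stab2, a scavenger receptor of sinusoids, had 0.58, 0.52 and 0.41 in irradiated and -1.13, -1.0 and -1.16 in control marrow, 3.03-fold higher. The VEGF receptor Kdr rose 2.60-fold, the sinusoid marker Emcn 2.46-fold, the diaphragm protein Plvap 2.43-fold, Mmrn2 2.70-fold and the junction cadherin Cdh5 2.03-fold. Adipocyte genes rose in 9 of 13 cases and fell in 1, Cd36 (median 0.893). The lipase Lpl had 4.15, 4.01 and 3.99 in irradiated and 2.01, 1.98 and 1.89 in control marrow, 4.25-fold higher, and the fat cell factor Pparg rose 2.48-fold. Adiponectin, Adipoq, had 2.48, 2.40 and 1.73 in irradiated and 1.35, 1.22 and 1.04 in control marrow, 1.99-fold higher. Osteoclast genes rose in 6 of 12 cases and fell in 2 (median 0.44), beside 38.3% and 19.5% of all tested genes. The protease Ctsk rose by 1.26 ± 0.25 and the receptor Tnfrsf11a, known as RANK, by 0.95 ± 0.13, while the phosphatase Acp5 and the carbonic anhydrase Car2 fell by 0.52 ± 0.11 and 0.25 ± 0.09.

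Cartilage and muscle genes, markers of tissues next to marrow, were mostly dim. Cartilage list means were -3.58, -3.24 and -4.16 on the irradiated arrays and -4.62, -4.88 and -4.88 on the control arrays. Among 8 tested cartilage genes 1 rose, the factor Sox9, above background on 1 irradiated array alone and not called without irradiated replicate 2, and Col2a1 had -0.31, -0.93 and -0.96 in irradiated and -2.56, -2.28 and -2.49 in control marrow without passing (adjusted p = 0.322 by limma). The part of adhering bone and cartilage in the stromal and bone rises was not tested. Muscle list means were -2.52, -3.50 and -3.60 on the irradiated arrays and -2.49, -3.68 and -0.40 on the control arrays, with control replicate 3 above the rest. Acta1, muscle actin, had -2.47, -2.79 and -2.46 in irradiated and -2.75, -3.14 and -0.65 in control marrow. Of 14 muscle genes 1 fell, Myom2 (at least 4.97-fold lower), and none did without control replicate 3. Ribosomal protein genes rose in 15 of 24 cases and fell in 0 (median 0.225), but only 2 rose after quantile normalisation, where the list median was -0.057. Rps19 rose by 0.49 ± 0.08 and Rps27l, a p53-inducible form, by 0.79 ± 0.08 on the log2 scale.

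Several of the largest falls belonged to no list. Smtnl2 had -3.38, -3.20 and -3.32 in irradiated and 0.56, 0.45 and 0.50 in control marrow, 14.0-fold lower. Jhy had -1.20, -1.56 and -1.46 in irradiated and 1.29, 1.25 and 1.31 in control marrow, 6.46-fold lower. The renin genes Ren1 and Ren2, close paralogs whose probes may share signal, were at least 2.78-fold and at least 1.69-fold lower and above background on no irradiated array. The same bound was 5.64-fold for Sertad4, 4.27-fold for the GDNF coreceptor Gfra1, 4.20-fold for the calponin Cnn1 and 1.68-fold for Dnase1. The adaptor Grb7 had -4.18, -4.53 and -1.73 in irradiated and -0.70, -0.65 and -0.25 in control marrow, where irradiated replicate 3 lay near the controls. Rbm24, an RNA-binding protein of muscle, had -4.11, -4.03 and -4.42 in irradiated and -1.53, -1.48 and -1.20 in control marrow, and was well above background on 2 of the 3 irradiated arrays.

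Set against marrow of the same age at 6 h after the dose, 5872 genes (49.4%) differed at 24 h, 3917 higher (32.9%) and 1955 lower (16.4%). Among genes that rose at 24 h over control, 2697 were also higher at 24 h than at 6 h and 90 were lower. Of those that fell, 1283 were also lower than at 6 h and 83 higher. The 24 h arrays enter both differences, so genes picked for a change from control at 24 h tend to differ from 6 h in the same direction. These counts are therefore a description and no test. The 24 h and 6 h comparisons share their control arrays, so their values are given side by side. At 6 h 23.9% of tested genes were above control and 22.1% below it.

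Most p53 targets were lower at 24 h than at 6 h. Of the 38 tested members 24 were lower at 24 h than at 6 h and 3 higher. Phlda3 was 3.36 ± 0.07 above control at 24 h and 3.90 ± 0.07 at 6 h on the log2 scale, a difference between the times of -0.54 ± 0.07 (adjusted p = 1.58e-05 by limma). Ccng1 was 2.38 ± 0.08 above control at 24 h and 3.18 ± 0.08 at 6 h, and Bbc3 1.06 ± 0.08 at 24 h and 1.98 ± 0.08 at 6 h, both lower at the later time. Cdkn1a was 2.81 ± 0.16 above control at 24 h and 2.97 ± 0.16 at 6 h, with a difference of -0.16 ± 0.16 that did not pass (adjusted p = 0.437 by limma). B-lineage genes were lower still at 24 h, with 7 of 15 recombination genes and 7 of 14 factors below their 6 h level, 1 and 0 above it, and 14 of 18 mature B genes below. Rag1 was -4.31 ± 0.10 at 24 h and -3.00 ± 0.10 at 6 h relative to control, a difference of -1.30 ± 0.10 (adjusted p = 8.51e-08 by limma). Ms4a1 was -0.97 ± 0.11 at 24 h and -0.03 ± 0.11 at 6 h.

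Replication and mitosis genes differed between the times in opposite directions. Of 41 replication genes 37 were below control at 6 h, and 28 were higher at 24 h than at 6 h with 0 lower. E2f1 was -0.28 ± 0.06 at 24 h and -0.69 ± 0.06 at 6 h, and Pola1 -0.42 ± 0.10 at 24 h and -0.74 ± 0.10 at 6 h. Of 36 mitosis genes 2 were below control at 6 h, and 26 were lower at 24 h than at 6 h with 0 higher. Cenpf was -0.88 ± 0.14 at 24 h and 0.34 ± 0.14 at 6 h, a difference of -1.21 ± 0.14 (adjusted p = 3.16e-06 by limma). Erythroid genes turned likewise, with 15 of 27 above control at 6 h and 22 lower at 24 h than at 6 h. Epb42 was -0.70 ± 0.12 at 24 h and 0.50 ± 0.12 at 6 h.

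Interferon, macrophage and stromal genes were higher at the later time. Interferon-stimulated genes were higher at 24 h than at 6 h in 29 of 36 cases and lower in 0, macrophage genes in 23 of 28 cases with 2 lower, and stromal genes in 17 of 27 cases with 0 lower. Ifit3 was 3.26 ± 0.19 above control at 24 h and 0.49 ± 0.19 at 6 h (difference 2.77 ± 0.19, adjusted p = 2.8e-08 by limma). Marco was 3.32 ± 0.14 at 24 h and 1.88 ± 0.14 at 6 h, and Sfrp2 3.71 ± 0.32 at 24 h and 1.12 ± 0.32 at 6 h. Ccl2 was 3.11 ± 0.11 at 24 h and 3.0 ± 0.11 at 6 h, with a difference of 0.11 ± 0.11 that did not pass, while Cxcl12 was 1.95 ± 0.16 at 24 h and 0.65 ± 0.16 at 6 h. Early granulocyte genes were higher at 24 h than at 6 h in 9 of 12 cases, and Ctsg was 1.04 ± 0.09 at 24 h and -0.05 ± 0.09 at 6 h. Among the widest gaps between the times were the immediate early factor Fos (2.74 ± 0.26) on the high side, and the prostaglandin receptor Ptgfr and the G protein subunit Gng13, both well above background on no control array and at least 2.18-fold and 3.10-fold above control. On the low side stood the muscle gene Trim55 (-3.73 ± 0.43), Pdpk1 (-3.51 ± 0.43), Mageb16 (-1.93 ± 0.24), Dnah2 (-1.74 ± 0.14) and Slc25a27 (-1.70 ± 0.29). The 6 h arrays of Trim55 and Pdpk1 spread widely, with SDs of 1.03 and 1.15 (n = 3). The other probes of Pdpk1 gave differences from control of -0.53 and -0.26, against -1.19 ± 0.43 by its brightest. Another probe of Dnah2 gave a difference from control of -1.08, opposite to its brightest probe (1.37 ± 0.14).

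**Figure D5:**
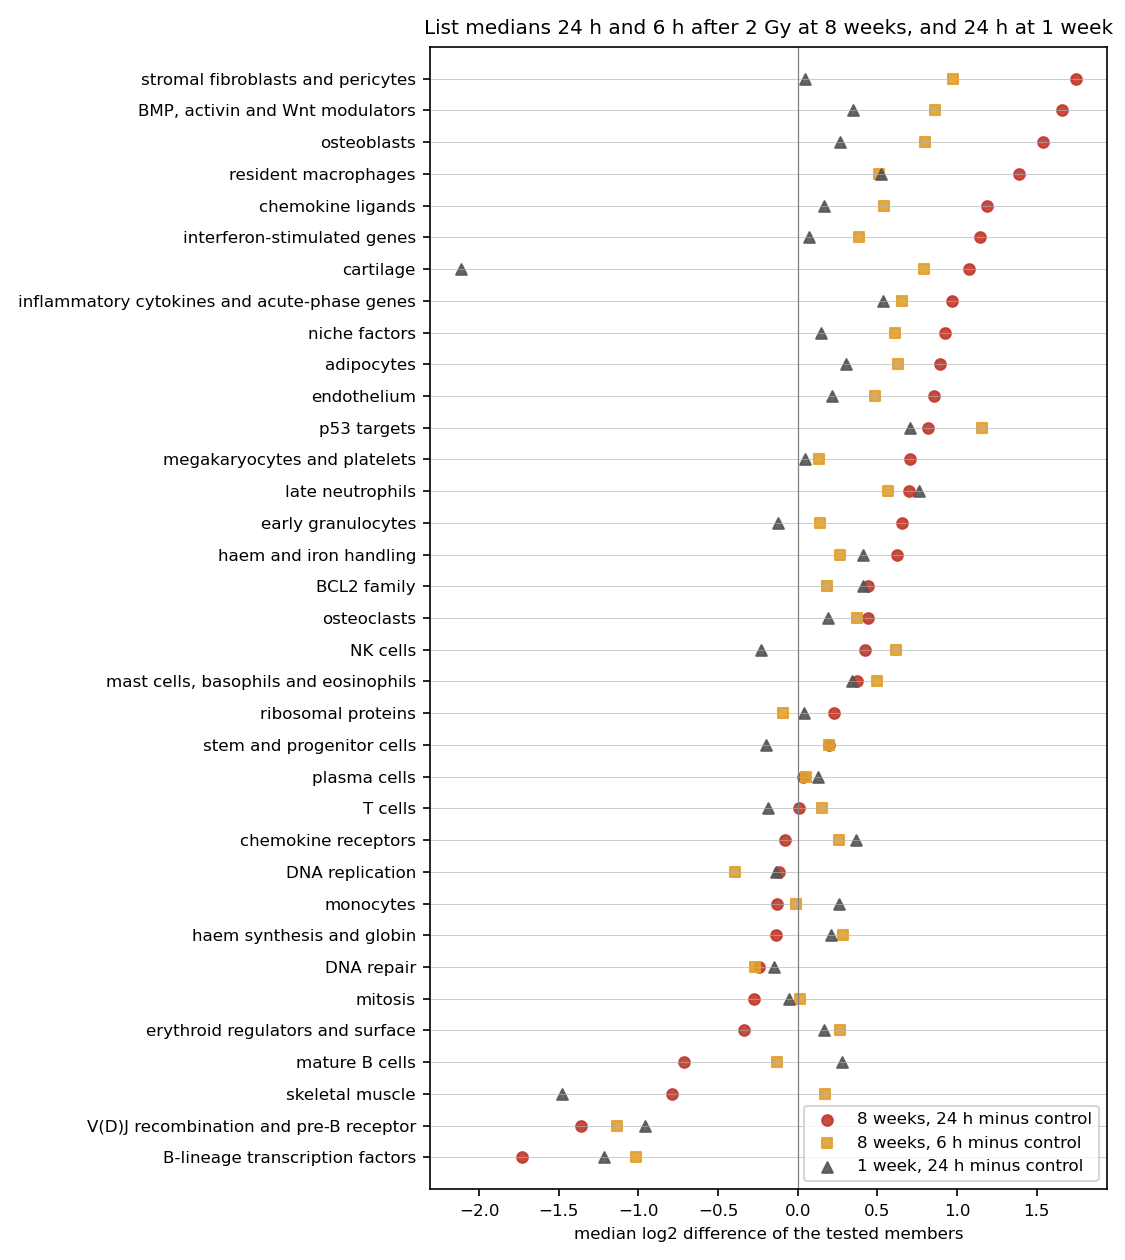
Median log2 difference of the tested members of 35 gene lists at 8 weeks, 24 h minus control (red circles), at 8 weeks, 6 h minus control (orange squares), and at 1 week, 24 h minus control (grey triangles). Mature B cells stand at -0.711, -0.128 and 0.279 in these comparisons, and stromal fibroblasts and pericytes at 1.749, 0.972 and 0.048.

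Whether the response at 24 h depends on age, the question of the study's title, was tested as the difference between the 24 h change at 8 weeks and that at 1 week. It passed for 5005 genes (42.1%), of which 3395 (28.6%) were more positive at 8 weeks and 1610 (13.5%) more negative. Among genes that rose at 8 weeks 2706 rose by more than at 1 week and 101 by less. Of those that fell, 1144 were more negative than at 1 week and 65 less. The 8-week change that picked these genes is also part of the age difference, so the counts lean this way in advance. They are a description and no test. In the 1-week comparison itself 18.4% of tested genes rose and 17.5% fell.

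The p53 list had no common direction of age difference, with 9 of 38 more positive and 9 more negative at 8 weeks. Of 15 recombination and pre-B receptor genes 2 were more positive and 4 more negative. Zmat3 was 3.0 ± 0.08 at 8 weeks and 3.11 ± 0.08 at 1 week, and Cdkn1a 2.81 ± 0.16 at 8 weeks and 2.29 ± 0.16 at 1 week, differences that did not pass (adjusted p = 0.408 and 0.0812 by limma). Gdf15 differed by age, at 4.03 ± 0.39 at 8 weeks and 1.1 ± 0.39 at 1 week (difference 2.93 ± 0.55, adjusted p = 0.000533 by limma). Lef1 was -2.71 ± 0.13 at 8 weeks and -2.60 ± 0.13 at 1 week, with a difference of -0.12 ± 0.18 that did not pass, whereas Rag1 was more negative at 8 weeks, by a difference of -1.31 ± 0.14. Mature B genes parted, with 14 of 18 more negative at 8 weeks and 0 more positive. Ms4a1 was -0.97 ± 0.11 at 8 weeks and 0.68 ± 0.11 at 1 week (difference -1.64 ± 0.15, adjusted p = 1.44e-06 by limma).

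The interferon-stimulated genes differed by age nearly throughout. Of 36 tested 33 were more positive at 8 weeks and 0 more negative, and 7 rose and 1 fell at 1 week. Ifit3 was 3.26 ± 0.19 at 8 weeks and 0.52 ± 0.19 at 1 week (difference 2.73 ± 0.26, adjusted p = 2.46e-06 by limma), and Oas1a was 1.89 ± 0.14 at 8 weeks and -0.16 ± 0.14 at 1 week. Stromal genes were more positive at 8 weeks in 22 of 27 cases, macrophage genes in 20 of 28 and chemokine ligands in 12 of 22, with 0, 1 and 1 more negative. Mcam was 1.70 ± 0.11 at 8 weeks and 0.06 ± 0.11 at 1 week, Foxc1 2.24 ± 0.17 at 8 weeks and 0.04 ± 0.17 at 1 week, and Kitl 1.88 ± 0.16 at 8 weeks and 0.37 ± 0.16 at 1 week. The mostly dim cartilage genes had a median change of 1.077 at 8 weeks and -2.113 at 1 week. Of 8 tested 1 was more positive at 8 weeks and 0 more negative. The part of adhering bone and cartilage in the age differences of stromal genes was not tested. Ccl2 was 3.11 ± 0.11 at 8 weeks and 1.37 ± 0.11 at 1 week (difference 1.75 ± 0.15, adjusted p = 9.89e-07 by limma), and Ccl3 1.17 ± 0.14 at 8 weeks and -0.02 ± 0.14 at 1 week. Ccl6 went the other way, at 0.60 ± 0.09 at 8 weeks and 1.05 ± 0.09 at 1 week, and Bmp4, at 2.16 ± 0.14 at 8 weeks and 2.31 ± 0.14 at 1 week, showed no difference that passed. Late neutrophil genes rose at 1 week too, in 31 of 31 cases, and their age difference was more positive for 6 and more negative for 4. Early granulocyte genes were more positive at 8 weeks in 9 of 12 cases, erythroid genes more negative in 17 of 27 and mitosis genes in 16 of 36.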

How the data were processed

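Total RNA of bone marrow was measured on one-colour Agilent arrays, 1 mouse per array. The processed intensity values used here are background-subtracted and spatially detrended, and were deposited by the authors unscaled between arrays. Their software was Agilent Feature Extraction, version 9.5.1.1 per the file headers and 11.5.1 per the submitters' processing notes. The other spot values used, flags of 0 or 1 for outliers, saturation and signal well above background, come from the same deposited files. Of 43379 non-control spots, those flagged as outliers were left out, and log2 intensities of the remaining spots of a probe were averaged. Each array's probe values were then reduced by their 75th percentile over non-control probes. Each gene was read from its probe with the highest mean signal. Of 41174 probes 24844 carried a gene symbol and 16330 did not. A gene was tested if its probe was well above background on all 3 arrays of some group and no array flagged it as an outlier (10 genes were left out for this).

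One mean per group was fitted over all 18 arrays with limma 3.58.1 in R 4.3.3, with an intensity trend and 12 residual degrees of freedom, and two-sided p-values were adjusted over 11888 genes by the Benjamini-Hochberg method. The script was tested on simulated data. The comparisons were 24 h against control and against 6 h at 8 weeks, and the 24 h change at 8 weeks minus that at 1 week. The precision is limited by 3 arrays per group. The 35 gene lists, and the choice of these samples, were made with earlier results of these data known. Genes named are the 15 largest rises and falls with groups apart, up to 5 leading members per list and those against its direction, every called chemokine ligand, the 6 highest and lowest differences in the other comparisons, and 28 fixed genes. A few of these are not reported here.

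Alternatives were normexp background correction, other scalings, filters and probe rules, the fit on compared arrays alone, no trend, slide or replicate number as a block, the authors' deposited log2 values centred per probe, and leaving out arrays. The files hold no mean spot signal, so normexp used the median signal as intensity. Its repeat with 11 high local backgrounds of 1 array replaced was chosen after seeing the data. Replicate numbers were checked for pairing: deviations of 45 same-number pairs from group means correlated at r = -0.267 to 0.322, so the numbers do not pair mice.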

Additional observations from a re-analysis of the deposited data

Results flagged for a closer look

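The test of the age difference passed for 5005 genes. Among them, 683 were called in opposite directions at 24 h at the 2 ages, 495 of which rose at 8 weeks and fell at 1 week and 188 the reverse. Of 239 genes selected by the naming rule 19 did so, beside 683 of all 11888 tested genes. Some of the 239 were selected for their age difference, so this count is no result about them. Their grouping below is a description and no test. Each value below is the 24 h change at 8 weeks minus that at 1 week on the log2 scale, from limma.

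Genes of early granulocytes and cytotoxic cells that rose at 8 weeks and fell at 1 week were the protease Prtn3 (1.38), the peroxidase Mpo (0.97), the killer protease Gzmb (1.75), the granule gene Nkg7 (1.20) and the factor Tbx21 (1.02). The progenitor antigen Cd34 (1.28) and the chemokine Ccl4 (2.15) did the same. Red cell genes that fell at 8 weeks and rose at 1 week were the membrane skeleton gene Epb42 (-1.04), Trim10 (-0.67) and the carbonic anhydrase Car2 (-0.62). The B-cell gene Ms4a1 (-1.64), the receptor Cx3cr1 (-1.34), the lipid receptor Cd36 (-0.84) and the metalloprotease Adam33 (-2.35) also did so.

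Genes named for their fitted age difference among those called at 8 weeks were, on the positive side, Ecrg4 (4.69), Bmper (4.14), Srpx (3.66), Flvcr2 (3.66), Nol3 (3.62) and Galnt16 (3.59). All 6 were well above background on 0 of the 3 control arrays of 8 weeks, so these fitted values and their order are not measured sizes. Their folds over control at 8 weeks were at least 2.86, 2.41, 2.13, 3.62, 7.63 and 2.02, in the same order. On the negative side were Mageb16 (-2.66), Ppm1e (-2.36), Adam33 and Cd209d (-2.26). Cd209b (-2.71) and Dnase1 (-2.59) were well above background on 0 of the 3 irradiated arrays of 8 weeks, so their fitted values are not measured sizes either. They were at least 1.55-fold and 1.68-fold lower than control at 8 weeks.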

How the results depend on the processing

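The 24 h comparison gave 3513 called genes with normexp on backgrounds as deposited, against 6874, and the 6 h and age comparisons 1854 and 979. Irradiated replicate 3 then held bright probes shifted by -1.55, against -0.23 to -0.1 on the other arrays. With its 11 high backgrounds replaced the counts were 6444, 4914 and 4182. As deposited, list members called were 317, against 479. Members that rose then numbered 2 for BCL2, plasma cell, early granulocyte and haem synthesis genes, 3 for NK, haem handling and osteoclast genes, 5 for late neutrophil and mast cell genes, 7 for megakaryocytes and 0 for ribosomal proteins, and those that fell 3 for T cells, 10 for DNA repair and 0 for muscle. With backgrounds replaced, 11 NK genes rose and 0 muscle genes fell. After quantile normalisation, where 59.6% of called genes were higher (66.2% otherwise), 25 replication genes fell and 2 ribosomal genes rose. With genes well above background on all arrays, 9 osteoblast and 0 cartilage genes rose and 0 muscle genes fell. Averaging probes left 0 cartilage genes, the arrays compared alone gave 4 cartilage and 2 muscle genes, and the slide block 2 muscle genes. Leaving out single arrays gave 4 to 7 NK, 4 to 7 monocyte, 11 to 19 megakaryocyte, 13 to 21 mitosis, 0 to 1 muscle and 0 to 1 cartilage genes, and 6145 to 6361 called genes in all. The cause of these changes was not tested. The replicate block gave 6848 called genes, moved no count by over 1.5 times and changed no call of a named gene. Differences turned sign for Adam33 (0.043, backgrounds replaced), Rpl13 (-0.010, quantile), Cx3cr1 (0.127), Bcl2l11 (0.024) and Cd209b (0.090, all by mean of probes), and for Cd3e (-0.54 to 0.350) and Acta1 (-0.877 to 0.367) over the repeats that left out 1 array, both positive without control replicate 3. Of the other alternatives for named genes 3931 kept direction and side of the threshold, 83 lost the call and 8 gained it. Probes near background give only bounds.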
